A study of Drosophila melanogaster with 159 samples.

Results

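The genes described here were those of Drosophila melanogaster whose RNA was higher at the end of embryogenesis than in embryos of 4.5 to 6.5 h, and again higher at the end of metamorphosis than at its start. They were chosen on 2 differences between means of log2 ratios. The embryonic rise was the mean of embryos of 18 to 24 h minus the mean of embryos of 4.5 to 6.5 h after egg laying. The pupal rise was the mean of animals at 72 to 96 h minus the mean at 0 to 6 h after the white prepupa. A gene was a member where both were at least 1.5 (log2). Of 3045 genes with a probe of their own, 2993 had a value in all 4 windows and 119 passed both thresholds. After 24 genes set aside by name (a list of single genes, many of muscle and nerve cells, and the Cyp, Gst and Cpr families) 95 members were left. The 2 rises are therefore the choice itself and carry no test, and every test below used arrays that the choice did not use, although the comparisons within the embryo after 8 h and within metamorphosis lie inside the intervals of the choice.

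The series followed wild-type Canton S animals kept at 25°C through the life cycle on 159 spotted cDNA arrays of 80 groups. Egg lays of 1 h gave 60 arrays of embryos, 24 arrays held larvae timed from hatching, 35 held animals timed from the white prepupa, and 40 held adults sorted by sex after freezing. Of the adult arrays 8 held flies labelled tudor, females and males of 0 to 24 h and of 5 d; tudor is a maternal-effect gene needed to form germ cells. The labels give the wild-type strain as the stock grown, and leave unstated if the flies themselves or only the mothers were mutant. Each array compared poly(A)+ RNA of whole animals with 1 reference RNA, so a value of 0 means the level of the reference, and a value cannot be set against that of another gene. In whole animals, fewer cells of a type and less RNA per cell cannot be told apart.

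A holometabolous insect builds its working body at the end of the embryo, when muscles contract, nerve cells form synapses and the epidermis secretes the first cuticle, and builds another during metamorphosis, when larval tissues are largely replaced. Genes of differentiated cells can therefore be used once for the larva and again for the adult. Such genes include those of synapses, of the sarcomere, of chitin and pigment chemistry and of oxidative metabolism.

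Several arrays stood apart from the rest. They include the replicate 1 arrays of 2-3 h and 4-5 h embryos and of 12 h and 16 h of metamorphosis. These 4 correlated with arrays of other groups, the 4 themselves aside, at 0.35 or less. Each of the other arrays reached at least 0.67 with an array of another group. At 9 times from 20 to 80 h of metamorphosis the replicate 1 array also stood apart, with a median correlation of 0.41 with its replicate 2. Slide numbers in the titles take 2 forms. The 57 arrays of the first form are called slide set A here, and the remaining 102 slide set B. All the replicate 1 arrays of metamorphosis named above were of set A. Slide set was a term in each test, and values for 1 set alone are given where they differ. An array held 6722 to 8547 values, and 74 members had a value on at least 150 arrays, while CG4239 had one on 55 and CG15096 on 61. The labels do not say whether replicates were separate collections, so the p-values reflect only how far these arrays spread, and that spread may be technical.

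Over the 95 members the median level was -2.22 (log2 ratio) in embryos of 0 to 2 h, -2.08 at 4.5 to 6.5 h, -1.76 at 8 to 11 h, -0.79 at 13 to 16 h, 0.26 at 16 to 18 h and 0.97 at 18 to 24 h. Larvae of 24 to 43 h had a median of 0.96, larvae of 49 to 72 h one of 0.85, and the oldest (84 h and later) one of 0.29. At 0 to 6 h of metamorphosis the median was -1.34, followed by -0.71 at 8 to 12 h, -0.90 at 16 to 30 h, -0.56 at 36 to 48 h, 0.07 at 60 h and 0.94 at 72 to 96 h. Between the 2 waves lay a larval plateau and a trough in the prepupa: 87 members were above the reference at 18 to 24 h, 81 in larvae of 24 to 43 h and 3 in the white prepupa window. Among the windows of wild-type animals, the highest mean lay in late metamorphosis for 25 members, in larvae of 24 to 43 h for 20 and in embryos of 18 to 24 h for 13, and the lowest lay in embryos of 0 to 2 h for 45. The windows of 4.5 to 6.5 h and 18 to 24 h, and of 0 to 6 h and 72 to 96 h of metamorphosis, chose the members. Their low and high levels, the trough and the counts of highest means there therefore follow in part from the choice.

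**Figure D1:**
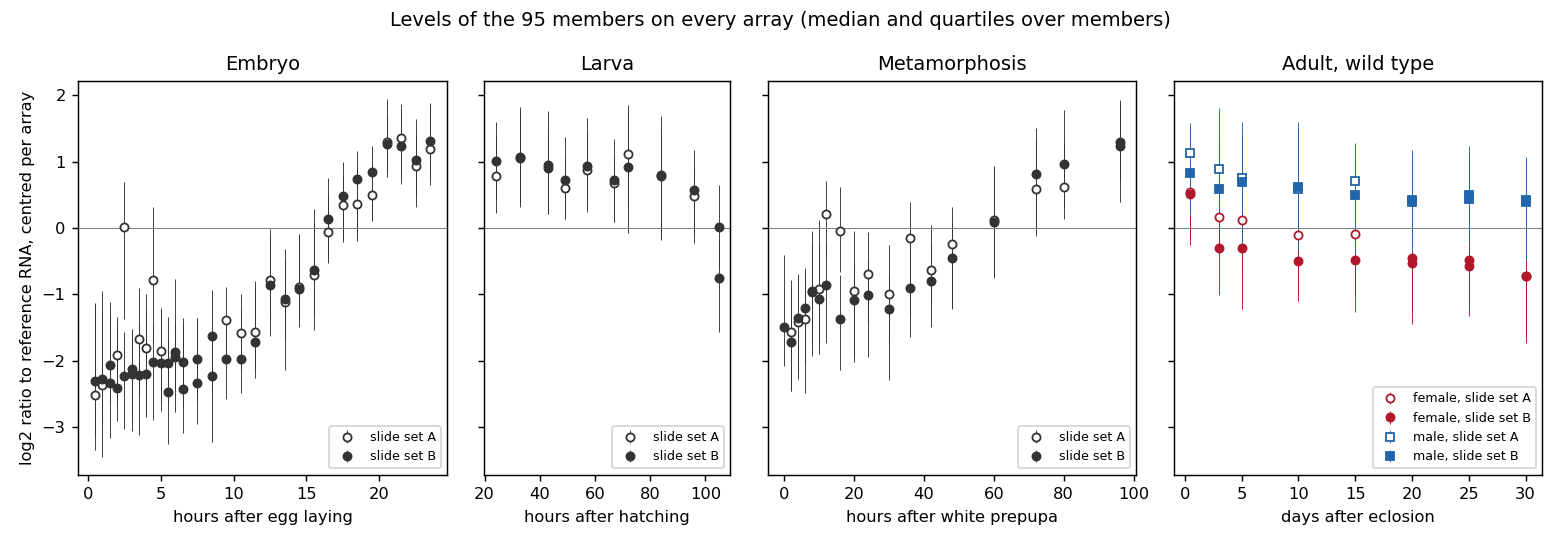
Median level of the 95 members on every unsexed or wild-type adult array (points) with the quartiles over members (bars), against age, as log2 ratio to the reference RNA after centring each array; open symbols are slide set A and filled symbols slide set B. Medians climb from about 12 h of embryogenesis, lie above 0 in larvae but for the oldest, are low from 0 to 48 h of metamorphosis and reach 0.94 over the arrays of 72 to 96 h; the arrays called embryo 2-3 h, embryo 4-5 h, 12 h and 16 h replicate 1 lie off the course.

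Embryonic rises ranged from 1.52 to 8.14 with a median of 2.68, and pupal rises from 1.51 to 4.38 with a median of 2.22. The embryonic rise was the larger in 62 members. The 8 largest embryonic rises were those of fau (8.14), HisT (6.95), CG1441 (5.76), obst-E (5.42), CG10433 (5.38), the jumonji-domain gene JMJD7 (5.23), Tango10 (5.18) and the small heat shock protein gene l(2)efl (4.98). The 8 largest pupal rises were those of the neprilysin-like peptidase gene Nepl11 (4.38), CG4239 (4.35, from 55 arrays with a value), CG7565 (4.29), CG31343 (4.25), CG10472 (3.99), HisT (3.98), CG12105 (3.95) and CG5597 (3.82). HisT was the one gene in both sets of 8. Just inside the embryonic threshold lay mRpL54 (1.52) and Ca-beta (1.54), and just outside it Fs (1.496) and CG32432 (1.486). Just inside the pupal threshold lay CG43373 (1.506) and PPO2 (1.521), and just outside it LManV (1.490) and Ms (1.473).

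**Figure D2:**
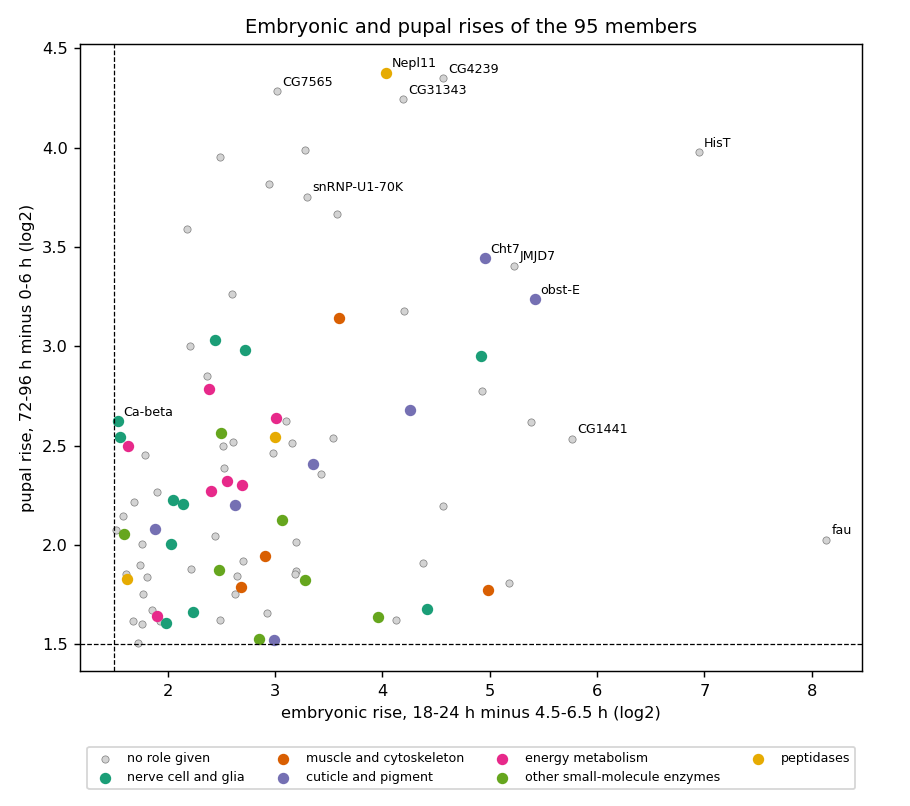
Embryonic rise (horizontal) against pupal rise (vertical) of each of the 95 members, in log2, coloured by known role; dashed lines are the thresholds of 1.5 that chose the members. Points fill the whole corner above both lines, with fau at 8.14 and HisT at 6.95 on the horizontal axis and Nepl11 at 4.38 highest on the vertical axis.

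For 39 members a role could be stated from general knowledge, and 41 have a CG number for a name. These roles were assigned after the values were seen. The nerve cell and glia group has 11 members, with a median embryonic rise of 2.14 and pupal rise of 2.22. They include amon, the prohormone convertase of neuropeptide cells, and 7B2, its chaperone; Rim, a scaffold of the presynaptic active zone; Ca-beta, the beta subunit of voltage-gated calcium channels; qvr, a regulator of the Shaker potassium channel; Rbp9, an RNA-binding protein of the ELAV family; Cbp53E, a calcium-buffering EF-hand protein; alrm, an astrocyte leucine-rich repeat protein; Lim1, a LIM-homeodomain factor; side-VII, of the sidestep family of surface proteins; and Esyt2, a synaptotagmin-like membrane tether. For amon the lowest, median and highest of 6 arrays at 4.5 to 6.5 h were -1.22, -1.09 and -0.50, and of 12 arrays at 18 to 24 h 0.81, 1.28 and 1.56. The 2 windows did not overlap, but they are among the windows that chose the members. At 0 to 6 h of metamorphosis its 7 arrays lay between -0.27 and 0.26, and at 72 to 96 h its 6 arrays between 1.23 and 2.14. The Rbp9 probe read here stood lower in its first wave than in its second. Its 12 late embryo arrays lay between -0.85 and -0.13, below the reference throughout, and its 6 late metamorphosis arrays between 1.86 and 2.41. Another Rbp9 probe had an embryonic rise of 0.46 and a pupal rise of 1.61. Lim1 had 1 value in the late metamorphosis window (2.07), so its pupal rise of 2.54 rests on that array.

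The 7 members of the cuticle and pigment group are obst-E, a chitin-binding protein that shapes the larval cuticle; Cht7, a chitinase; Idgf2, a chitinase-like growth factor; yellow-b, of the yellow family of pigment proteins; osy, an ABC transporter for lipids of the cuticle surface; PPO2, a prophenoloxidase of blood cells that makes melanin; and Pu, the GTP cyclohydrolase that starts pteridine synthesis. Their median embryonic rise was 3.35 and pupal rise 2.41. In obst-E the 6 arrays of 4.5 to 6.5 h had a lowest value of -4.73, a median of -3.52 and a highest of 0.17, and the 12 of 18 to 24 h lay between 1.60 and 2.91. Its median was highest in larvae of 84 h and older (3.06 over 6 arrays). At 8 to 12 h of metamorphosis its 6 arrays, between 0.15 and 2.71, were all above the 7 arrays of 0 to 6 h, between -5.79 and -1.84. At 72 to 96 h the 6 arrays lay between -1.64 and 0.44. The median of the last pupal arrays (0.00) was thus below that of 8 to 12 h (1.64), with ranges that overlapped. Both windows lay above that of 0 to 6 h, which for 72 to 96 h follows in part from the choice of members. Cht7, by contrast, had its 4 late metamorphosis values between 1.25 and 1.70, above all 6 of its values at 8 to 12 h (-1.34 to -0.17).

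Muscle and cytoskeleton were represented by bt (projectin, a giant elastic kinase of the sarcomere), Strn-Mlck (a myosin light chain kinase relative of muscle), jbug (a filamin-type actin cross-linker) and l(2)efl. Strn-Mlck was between -3.49 and -2.62 on 6 arrays at 4.5 to 6.5 h and between -0.58 and 1.73 on 12 arrays at 18 to 24 h. In metamorphosis it was between -2.97 and -1.57 on 7 arrays at 0 to 6 h and between -0.21 and 2.44 on 5 arrays at 72 to 96 h. The windows did not overlap in either case, but they are the windows that chose the members, so this is a description only. Strn-Mlck and jbug each have another probe, which gave embryonic and pupal rises of 0.90 and 1.52 for Strn-Mlck and of -0.70 and 0.04 for jbug. Over all members, 5 other probes had both rises measured, of which 1 (Ald1) had both at least 1.5 and 3 had both above 0.

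The 7 members of energy metabolism are the glycolytic enzyme Ald1 (aldolase), the mitochondrial pyruvate carrier Mpc1, the dicarboxylate carrier Dic1, the citric acid cycle enzymes Ogdh and ScsbetaA, the ATP synthase subunit ATPsynF and the malic enzyme Men-b. Their median embryonic rise was 2.40 and pupal rise 2.32. The ranges of ATPsynF given next are of the windows that chose the members, so they are a description only. ATPsynF was between -0.06 and 0.49 on 6 arrays at 4.5 to 6.5 h and between 1.78 and 3.00 on 12 arrays at 18 to 24 h; its 7 arrays at 0 to 6 h of metamorphosis lay between -0.11 and 0.49 and its 6 at 72 to 96 h between 1.92 and 4.62. Another 7 are enzymes of small molecules: Desat1, the fatty acid desaturase; Faa, fumarylacetoacetase of tyrosine breakdown; Aldh-III, an aldehyde dehydrogenase; alpha-Est2, an esterase; Daao2, a D-amino acid oxidase; Alp6, an alkaline phosphatase; and ninaB, the carotenoid oxygenase that makes the precursor of the visual pigment. The peptidase genes were Nepl11, Nepl19 and CtsK2, a cathepsin-type gene.

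Of the gene lists that describe these tissues, neuron genes had 2 members of 25 measured (amon and Rim, with 4 more set aside by name), muscle structure genes 2 of 13 (bt and Strn-Mlck, with 7 set aside), and cuticle and chitin genes 2 of 13 (Cht7 and Idgf2). One member each came from the lists for glycolysis (Ald1, with 1 more set aside), mitochondrial respiration (Ogdh), muscle calcium (Cbp53E), lipids (Desat1) and blood cells (PPO2). No member was found among 10 cell cycle genes, 13 germline and testis genes, 8 proteasome genes, 11 axon guidance genes, 11 ion pump and transporter genes, 8 septate junction and tracheal genes, 5 glial, 4 photoreceptor, 4 ecdysone response and 2 gut genes. The ion pump and transporter list and the glial list each had 1 gene set aside by name. The members were 95 of 2993 genes in all, so a list this short is not set apart by holding none.

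The 2 slide sets gave like embryonic rises and unlike pupal rises. Over the 76 members with both, embryonic rises in set A and set B had Pearson's r of 0.84 and Spearman's rho of 0.75. Over 79 members the pupal rises had r of 0.07 and rho of 0.07. These are correlations over genes on shared arrays and carry no test. Both sets entered the means that chose the members, so the choice bears on these correlations and on the counts that follow. The pupal rise was at least 1.5 in 66 of 83 members measured in set A and in 78 of 91 measured in set B, and it was above 0 in 81 and in 91 of them. In set A the late window holds the replicate 1 arrays of 72 and 80 h, both among those that stood apart. Ald1 had a pupal rise of -1.65 in set A and 3.33 in set B, and CG1441 had -0.38 and 4.17. Desat1 went the other way, with 3.23 in set A and 0.41 in set B. HisT (3.92 and 3.89), obst-E (3.23 and 3.42), JMJD7 (3.41 and 3.30) and snRNP-U1-70K, a splicing factor gene (3.45 and 3.77), had like values in both. By set A alone 87 genes met the rule, of which 55 were members, and by set B alone 97, of which 74 were members. Without the replicate 1 arrays of 72 and 80 h, 100 genes met it, and 83 of them were members.

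**Figure D3:**
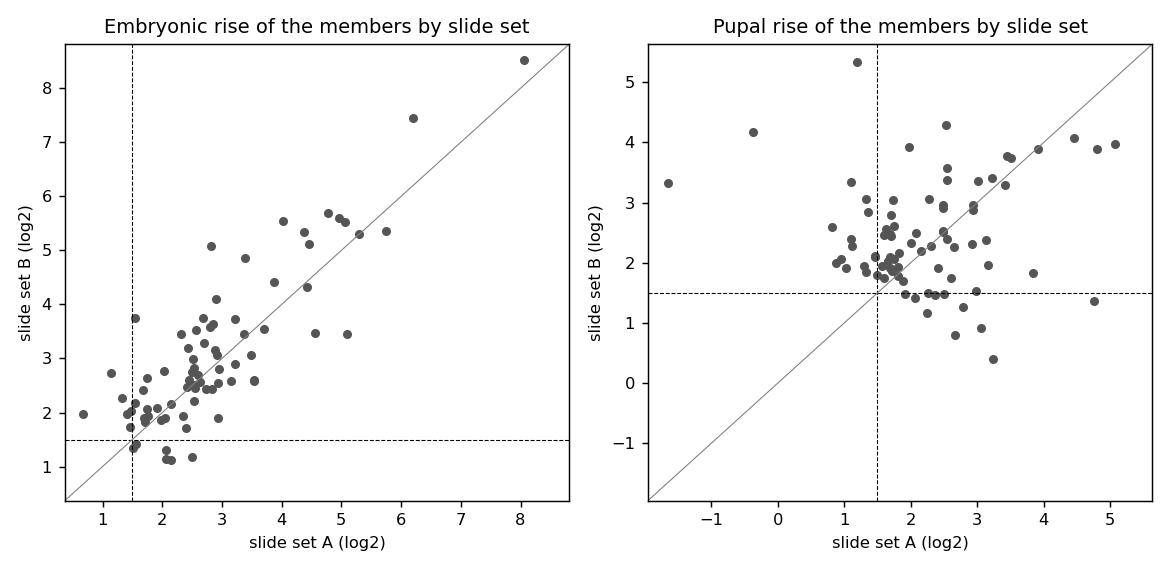
Embryonic rise (left) and pupal rise (right) of each member computed from slide set A (horizontal) and slide set B (vertical), in log2; the grey line marks equal values and dashed lines mark 1.5. Embryonic rises lie along the line (r = 0.84), and pupal rises do not (r = 0.07), with Ald1 at -1.65 in set A at the far left.

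The time at which a member passed midway between its low and its high window was read from group means. It was the first time at or above midway where the next measured time was too. Midway was taken from both slide sets together, also for the times of each set. In the embryo the median of this time was 16 h: 49 members passed it at 16 to 18 h, 17 at 13 to 15 h and 21 at 11 to 12 h. HisT, Ca-beta, Strn-Mlck and Rbp9 passed it at 12 h, amon and Nepl11 at 14 h, fau and obst-E at 16 h. In metamorphosis the median was 48 h over both sets but 12 h in set A (84 members) and 60 h in set B (90 members). The set A times include the 12 h and 16 h arrays that stood apart. In set B Ca-beta and Rbp9 passed midway at 36 h, HisT and Strn-Mlck at 60 h, fau and Nepl11 at 72 h, and obst-E at 6 h. Embryonic and pupal times had r of 0.003 over 94 members.

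The first comparison asked which members already differed between 8 to 11 h and 13 to 16 h of embryogenesis, when tissues differentiate, on 6 arrays each. These hours lie inside the interval over which the members were chosen to rise, so the test tells when a member moved, and an excess of higher members partly follows from the choice. In limma, with Benjamini-Hochberg adjustment over all probes and calls made where the adjusted p was under 0.05, 53 of 82 members tested were higher at 13 to 16 h and 2 were lower. Among all probes tested, 19.4% were higher and 23.4% lower. The median difference was 0.85 over the members and -0.06 over all probes. HisT showed the largest difference. It was between -4.75 and -2.80 at 8 to 11 h (median -3.93) and between -0.74 and 0.37 at 13 to 16 h (median -0.46), a difference of 3.51 (SE 0.30, adjusted p = 6.33e-07). The windows did not overlap. l(2)efl rose by 2.82 (SE 0.37, adjusted p = 3.36e-05), JMJD7 by 2.81 (SE 0.23) and fau by 2.72 (SE 0.44). Yellow-b, Strn-Mlck and Cht7 rose by 2.15, 1.86 and 1.77, each with all arrays of 13 to 16 h above all of 8 to 11 h. Of the nerve cell and glia group 7 of 9 rose, amon by 1.09, Ca-beta by 0.91 and Rim by 0.76; of the cuticle and pigment group 5 of 7; of the energy metabolism group 4 of 5. The 2 members that fell were CG5597 (-0.91, SE 0.18) and Cbp53E (-0.54, SE 0.19, adjusted p = 0.0344). CG5597 was between -1.20 and -0.20 at 8 to 11 h and between -1.82 and -1.48 at 13 to 16 h. Slide set A alone called 25 members and set B alone 56.

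RNA of the egg is cleared, and zygotic transcription starts, soon after egg laying. The next test set 6 arrays of embryos of 2.5 to 4.5 h against 6 of 0 to 2 h. Of 86 members tested 47 were higher and 14 lower, against 47.6% higher and 20.7% lower among all probes, shares near the members' own 54.7% and 16.3%. The count of higher members depends on the scaling, since the median of all probes moved by 0.34 with each array centred and by -0.08 without centring. There were 17 members higher and 24 lower without centring, and 16 higher and 22 lower after quantile normalization. The 2 last pairs of counts have no share of all probes beside them, so they show only the dependence on scaling. The falls were the larger changes. HisT was between -1.81 and -0.67 at 0 to 2 h (median -1.07) and between -5.79 and -5.08 at 2.5 to 4.5 h (median -5.40), a fall of 4.32 on the log2 scale (SE 0.18, adjusted p = 9.18e-10). JMJD7 changed by -3.61 (SE 0.15), CG8064 by -3.09 (SE 0.19) and Desat1 by -2.97 (SE 0.13), and none of the 4 genes overlapped between the windows. Desat1 RNA was between -0.69 and 0.31 at 0 to 2 h, and the gene did not return to that range until the 18 to 24 h window, where it lay between -0.97 and 1.04. Strn-Mlck and amon were also lower, with all 6 arrays of 2.5 to 4.5 h (-3.90 to -2.71 and -0.86 to -0.42) below all 6 of 0 to 2 h (-1.49 to -1.14 and 0.02 to 0.93). Among members that rose, alpha-Est2 rose by 1.78 (SE 0.25), CG16820 by 1.60 (SE 0.27), jbug by 1.58 (SE 0.23) and fau by 1.52 (SE 0.26). The early level of fau was between -7.91 and -5.79.

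Through larval growth members fell more often than they rose. Unsexed larvae of 84 h and older were compared with those of 24, 33 and 43 h, on 6 arrays each: 4 of 87 members were higher and 29 lower, against 13.9% higher and 17.2% lower among all probes. The median difference was -0.60 over members and -0.02 over all probes. Cbp53E was between 1.26 and 2.15 in young larvae and between -1.12 and -0.44 in old ones, a change of -2.40 (SE 0.18, adjusted p = 1.74e-06) with no overlap. Ktl changed by -2.63 (SE 0.26), Faa by -2.23 (SE 0.43) and Desat1 by -2.15 (SE 0.43). In the nerve cell and glia group 5 of 10 fell and 0 rose; on the list of neuron genes 13 of 21 fell and 2 rose. Rim fell by 1.12 (adjusted p = 0.00411), while amon differed by -0.68 (adjusted p = 0.147). The 4 members that rose were CtsK2 (2.66, SE 0.83, adjusted p = 0.026), alpha-Est2 (2.24, SE 0.50), l(2)efl (1.14, SE 0.31) and Aldh-III (0.90, SE 0.22). CtsK2 was between -1.21 and 0.86 in young larvae and between -1.97 and 3.92 in old larvae, with a median of 3.44, and the groups overlapped: the 2 arrays of the oldest larvae were at -1.97 and 1.85, while the 4 arrays of 84 and 96 h lay between 3.42 and 3.92. Set A alone called 6 members and set B alone 30.

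Between 8 to 12 h and 36 to 48 h of metamorphosis, on 6 arrays each, 3 of 81 members rose and 8 fell, against 2.53% higher and 4.21% lower among all probes. Ca-beta was between -1.94 and -1.21 at 8 to 12 h and between -0.52 and 0.31 at 36 to 48 h, a rise of 1.46 (SE 0.21, adjusted p = 0.00194) with no overlap. The other members that rose were snRNP-U1-70K (1.40, SE 0.27) and Faa (1.08, SE 0.29, adjusted p = 0.0391). Of the cuticle and pigment group 2 of 5 tested members fell, osy and obst-E, and 0 rose. The median difference of the group was 0.16, and Pu (1.13), PPO2 (0.74) and yellow-b (0.16) were not called. osy was between 0.28 and 3.43 at 8 to 12 h and between -2.06 and 0.33 at 36 to 48 h, a change of -3.39 (SE 0.44, adjusted p = 0.00166). obst-E changed by -3.15 (SE 0.64, adjusted p = 0.0125), CG10433 by -2.10 (SE 0.36) and CG16820 by -2.03 (SE 0.50). On the separate list of cuticle and chitin genes, which holds neither osy nor obst-E, 2 of 8 fell and 0 rose. The count of members called rests on few arrays, and the count over all probes moved with it. With all arrays 467 of 6930 probes were called. Set A alone called 3 members and 364 of 7249 probes, and set B alone 19 members (10 higher and 9 lower) and 339 of 7926 probes. Without 12 h replicate 1 there were 24 members and 952 of 7008 probes, without both arrays of 12 h 25 members (15 higher and 10 lower) and 907 of 7068 probes, and without 42 h replicate 2 there were 7 members and 273 of 6976 probes. Without the replicate 1 arrays of 36 to 48 h, 2 members, both lower, and 74 of 6844 probes were called. Without centring 5 were higher and 7 lower. For obst-E the difference was -1.44 in set A alone (adjusted p = 0.239) and -4.86 in set B alone.

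**Figure D4:**
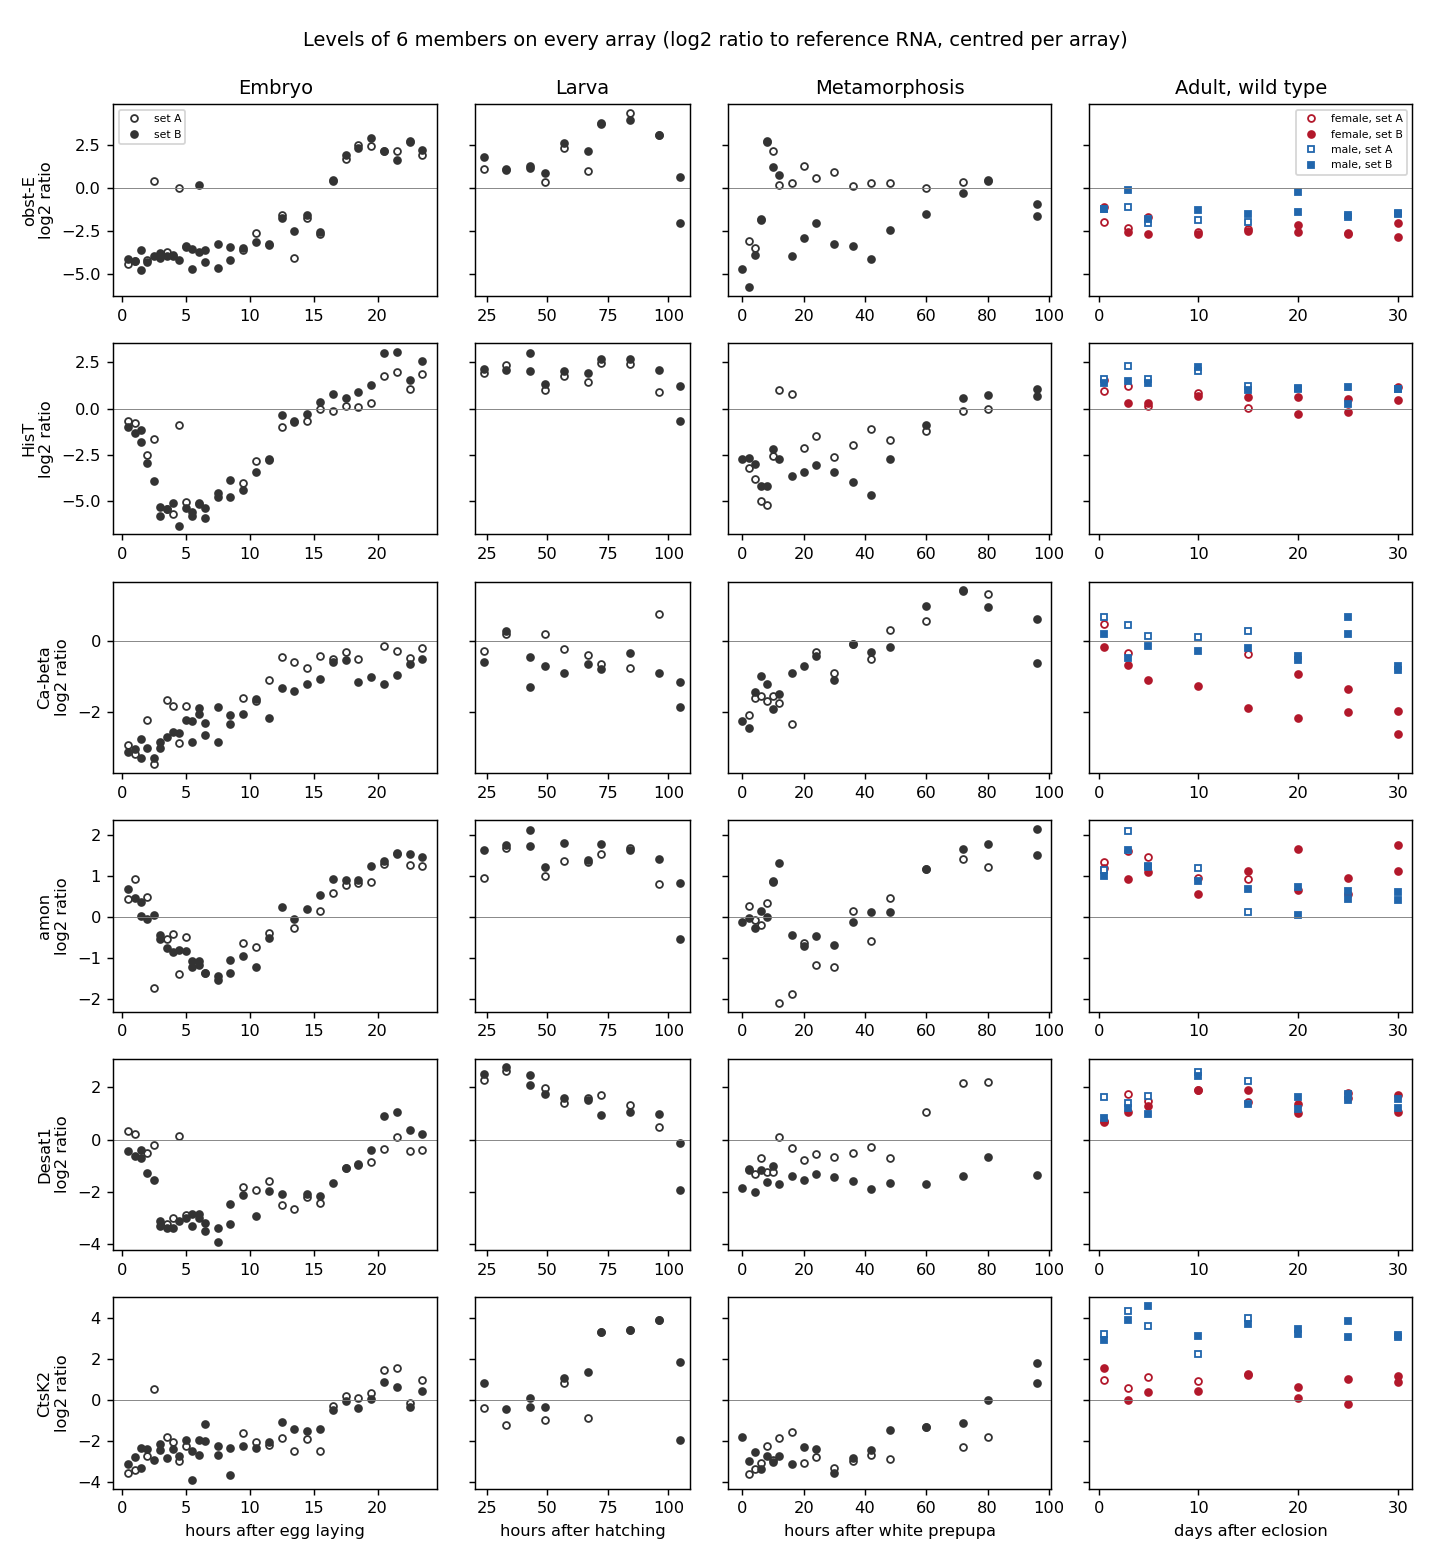
Levels of 6 members on every array of embryos, unsexed larvae, metamorphosis and wild-type adults, as log2 ratio to the reference RNA after centring; open symbols are slide set A, filled symbols slide set B, and in adults circles are females and squares males. HisT and Desat1 fall after 2 h of embryogenesis and return, within metamorphosis obst-E is highest at 8 to 12 h, with set A above set B from 16 to 48 h, Desat1 is above 2 at 72 and 80 h in set A only, and CtsK2 is higher in males (2.28 to 4.60) than in females (-0.19 to 1.56).

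Young adults and young larvae, which lie after the 2 waves, were compared next, with 12 arrays of wild-type adults of 0 to 24 h, 3 d and 5 d (both sexes weighted equally) against 6 arrays of larvae of 24 to 43 h. Of 85 members 9 were higher in adults and 41 lower, against 22.4% higher and 27.7% lower among all probes. The median difference was -0.65 over members and -0.07 over all probes. The sexes were unlike: the median level over members was 0.13 in these females, 0.74 in these males and 0.96 in the larvae. Each sex was not tested against larvae on its own. CG32564 was between 0.43 and 2.41 in larvae and between -4.15 and -1.76 in adults, a difference of -4.18 (SE 0.31, adjusted p = 1.36e-09) with no overlap. obst-E differed by -2.87 (SE 0.25), Alp6 by -2.74 (SE 0.29) and CG4168 by -2.47 (SE 0.71); the adult range of CG4168, from -7.36 to 0.29, was set by its lowest array. In the cuticle and pigment group 5 of 7 members were lower in adults, Cht7 with a difference of -1.55 (SE 0.28), and osy was higher. osy was between -0.47 and -0.01 in larvae and between 0.59 and 2.26 in adults (1.60, SE 0.17, adjusted p = 1.79e-07). The largest positive difference was that of CtsK2 (2.54, SE 0.29), followed after osy by CG8086 (1.32, SE 0.17) and CG31781 (1.19, SE 0.28). In the nerve cell and glia group 6 of 10 were lower and 1 higher; on the list of neuron genes 12 of 21 were lower and 2 higher. Set A alone called 24 members and set B alone 54.

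In adults the members were mostly higher in males. With the 32 wild-type arrays, 16 of each sex from 0 to 24 h to 30 d and age as a factor, 69 of 84 members were higher in males and 5 lower, against 39.9% and 34.1% of all probes. The median difference was 0.90 over members and 0.07 over all probes. sxe2, a lipase-family gene known for its sex-dependent expression, was between -2.11 and 0.00 in females (median -1.28, 15 arrays) and between 0.65 and 3.26 in males (median 2.11, 16 arrays), a difference of 3.34 (SE 0.17, adjusted p = 1.56e-16) with no overlap. CG16820 was higher in males by 3.19 (SE 0.16), CG30427 by 2.98 (SE 0.19) and CtsK2 by 2.73 (SE 0.18). Nerve cell and glia genes were higher in males in 9 of 10 cases (Rbp9 1.69, Ca-beta 1.07, Rim 0.82), muscle and cytoskeleton genes in 4 of 4 (bt 0.89, Strn-Mlck 0.71) and cuticle and pigment genes in 6 of 7. amon differed by -0.24 (adjusted p = 0.12) and Desat1 by 0.16 (adjusted p = 0.186). The members lower in males were CG8861 (-1.19, SE 0.13), CG7565 (-0.68), CG8064 (-0.42), alpha-Est2 (-0.40) and CG10973 (-0.25, adjusted p = 0.0498). CG8064 differed by 0.030 in set A alone, and its call ended when any 1 of 5 arrays was left out. Females carry ovaries and males testes: on the list of germline and testis genes 10 of 13 were higher in males and 3 lower, with a median difference of 3.82, and their part in the members' difference was not tested. Set A alone called 52 members and set B alone 72.

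The flies labelled tudor were compared with wild-type flies of the same sex and ages, 4 arrays each, in a fit over all 40 adult arrays. On the germline and testis list 3 of 13 genes were lower and 3 higher in tudor than in wild-type females. The median log2 difference of the list was 0.54. The lower genes were mtrm, exu and swa (-3.74, -4.36 and -3.95), and the higher ones Tektin-A, vrs and Theg (1.20, 1.26 and 0.79). In tudor males 11 of 13 genes were lower than in wild-type males and 0 higher. In females 63 of 86 members were higher in tudor flies and 1 was lower, against 24.2% higher and 13.6% lower among all probes, with a median difference of 1.09 over members and 0.18 over all probes. Without centring, the median of all probes was 0.02 and 47 members were higher and 1 lower, with no share of all probes set beside these counts. CtsK2 was 3.60 and 4.26 in tudor females of 0 to 24 h and 4.00 and 3.34 at 5 d, and its 4 wild-type arrays of those ages lay between 0.39 and 1.56, a difference of 2.81 (SE 0.30, adjusted p = 8.7e-08). HisT was 3.57, 3.00, 3.46 and 3.41 on the 4 tudor arrays and between 0.13 and 1.56 in wild-type females (2.68, SE 0.30, adjusted p = 1.95e-07). CG9512 rose by 2.56 (SE 0.40) and Nepl11 by 2.43 (SE 0.36). All 7 cuticle and pigment members were higher (obst-E by 1.77, PPO2 by 1.83, Idgf2 by 1.64 and Cht7 by 1.54), as were 6 of 7 small-molecule enzymes (Daao2 by 2.24, Faa by 2.20). In the nerve cell and glia group 6 of 10 were higher, amon by 0.96 (adjusted p = 0.00446), while Rim differed by 0.49 (adjusted p = 0.281). PPO2 differed by age among tudor females, at -0.70 and -1.04 on the first day and 2.25 and 2.14 at 5 d. CG8861 was the 1 member lower in tudor females (-1.10, SE 0.24). All tudor arrays were of slide set B; set B alone called 58 members.

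In males fewer members changed with the tudor label. Of 86 tested 19 were higher and 2 lower, against 10.5% higher and 12.2% lower among all probes, with medians of 0.56 over members and 0.14 over all probes. Tango10 was 2.93, 2.67, 2.80 and 2.45 in tudor males and between 1.52 and 1.71 in wild-type males of those ages, a difference of 1.27 (SE 0.23, adjusted p = 0.000144) with no overlap. fau rose by 1.16 (SE 0.24), CtsK2 by 1.01 (SE 0.30, adjusted p = 0.0148) and jbug by 0.99 (SE 0.21). salt changed by -1.17 (SE 0.29) and ScsbetaA by -1.02 (SE 0.23). In the cuticle and pigment group 4 of 7 were higher, obst-E by 0.89 and Cht7 by 0.88, while PPO2 differed by 0.06 (adjusted p = 0.916). In the nerve cell and glia group 0 of 10 passed limma's test, and 3 had an unadjusted p under 0.05. The difference between the sexes was tested itself: the tudor difference was smaller or more negative in males for 21 of 86 members and larger for 1, against 13.8% and 7.87% of all probes. The sex and tudor comparisons share the wild-type arrays. Set B alone called 11 members. Without the adult male 5 d replicate 2 array 13 members and 1200 of 6863 probes were called. With all arrays 734 of 7003 probes were higher and 855 lower.

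**Figure D5:**
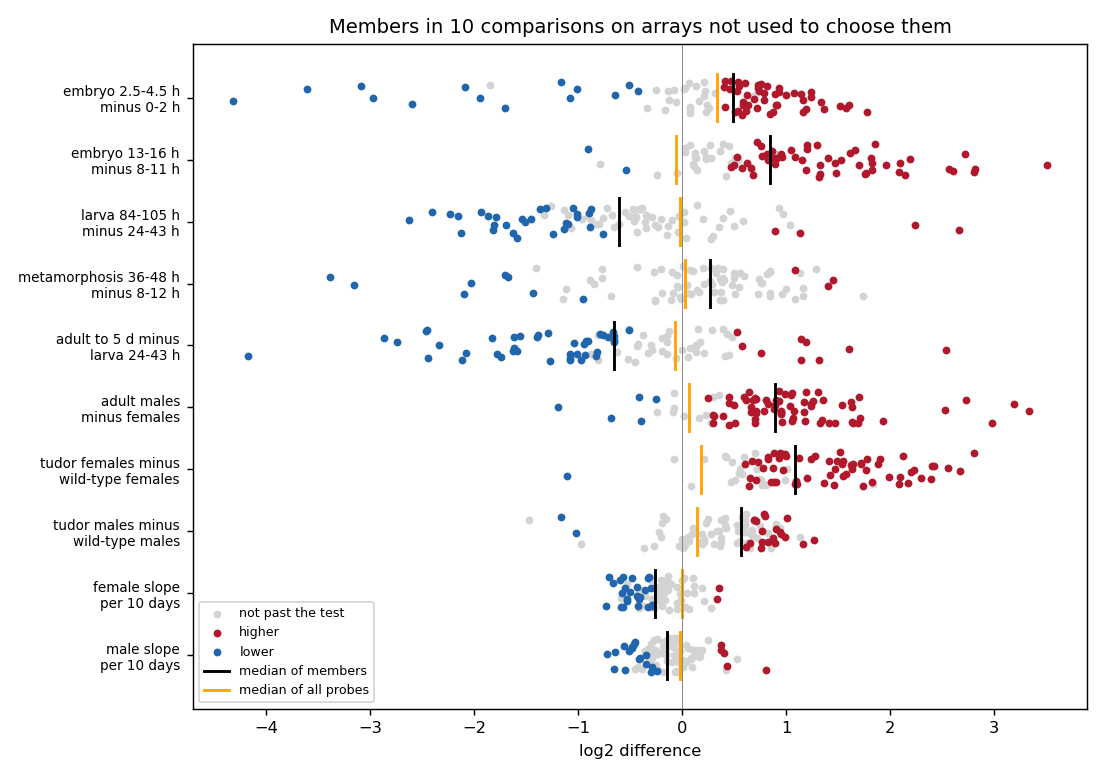
Log2 difference of every tested member (points) in the 10 comparisons named on the left, red where higher and blue where lower at an adjusted p under 0.05 and grey otherwise; black bars are medians over members and orange bars medians over all probes. The black bar lies right of the orange one by the most in tudor females (1.09 against 0.18), the 13 to 16 h embryo (0.85 against -0.06) and adult males (0.90 against 0.07), and left of it in old larvae, in adults against larvae and in both ageing slopes.

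Over 30 days of adult life members fell more often than they rose. Slopes were fitted in days for each sex on the 32 wild-type arrays and are given per 10 d. All arrays of 20, 25 and 30 d were of slide set B, so age and slide set are partly tied. Set A alone holds flies of up to 15 d, and its slopes cover those ages only. In females 2 of 84 members rose and 25 fell, against 3.85% higher and 4.85% lower among all probes. Rbp9 was between -0.51 and 1.19 on 6 arrays of 0 to 24 h to 5 d and between -1.81 and -0.15 on 4 arrays of 25 and 30 d, a slope of -0.59 (SE 0.11, adjusted p = 0.000802). Ca-beta fell by 0.57 (SE 0.11) with no overlap between those ages, CG10226 by 0.73 (SE 0.15) and CG10949 by 0.70 (SE 0.19). snRNP-U1-70K had a slope of -0.66 (SE 0.21, adjusted p = 0.0388), but its old arrays ranged from -5.21 to -0.51, and without adult female 30 d replicate 1 the slope was -0.27 (adjusted p = 0.302). Idgf2 rose by 0.34 (SE 0.08, adjusted p = 0.00715), with the 4 old arrays between 0.68 and 1.03 and the 6 young ones between -0.22 and 0.62, and Elal by 0.35 (SE 0.11, adjusted p = 0.0477). The Elal call ended when any 1 of 19 arrays was left out, and its slope was -0.10 in set A alone. The count in females rests on few arrays, and the count over all probes (264 higher and 333 lower of 6860) fell with it. Without adult female 0-24 h replicate 2 there were 7 members and 161 of 6861 probes. Without replicate 1 of that age there were 15 members and 334 of 6927 probes. Without adult female 30 d replicate 2 there were 16 members and 437 of 6876 probes. The count of members was 12 without centring, 6 in set B alone and 0 in set A alone, where 22 members had an unadjusted p under 0.05 in limma.

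In males 5 of 84 members rose with age and 17 fell, against 5.09% higher and 5.76% lower among all probes. CG8064 was between 1.19 and 2.29 on 6 young arrays and between -0.28 and 0.46 on 4 old ones, a slope of -0.72 per 10 d (SE 0.16, adjusted p = 0.00243). CG10949 fell by 0.66 (SE 0.19), CG30427 by 0.65 (SE 0.13, with 2 old arrays measured) and CG16820 by 0.55 (SE 0.13). In the energy metabolism group 4 of 5 members fell, among them Ald1 by 0.51 (SE 0.14, adjusted p = 0.0179) and ScsbetaA by 0.29 (SE 0.08). In females 0 of 5 members of this group were called, with a median slope of -0.28 against -0.46 in males. On the lists, 4 of 10 glycolysis genes and 2 of 6 mitochondrial respiration genes fell in males, and 0 of either in females. amon fell by 0.34 (SE 0.10, adjusted p = 0.0248), with old arrays between 0.42 and 0.63 and young ones between 1.00 and 2.09. CG4377 rose by 0.81 (SE 0.18, adjusted p = 0.00251), CG14762 by 0.44 (SE 0.14), Nepl11 by 0.40 (SE 0.13, adjusted p = 0.0487) and CG10433 by 0.38 (SE 0.13, adjusted p = 0.0486). Leaving out any 1 of 7, 24 and 21 arrays ended the calls of CG14762, Nepl11 and CG10433. On the germline and testis list 4 of 13 genes fell with age in males and 0 in females, and their part was not tested. With all arrays 349 of 6860 probes were higher and 395 lower in males. Without adult male 0-24 h replicate 1 there were 13 members and 574 of 6927 probes called. Without replicate 2 of that age there were 13 members and 450 of 6861 probes. Set B alone called 9 members and set A alone 3, and without centring 6 members rose and 6 fell. The slopes of the sexes differed for 2 members (CG42613 and fau), and 1.43% of all probes passed that test.

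Outside the arrays, the members' places in the genome were compared with those of all 3045 genes, as a description. By the Release 6 gene table, 32 members (33.7%) are on 3R, which holds 24.9% of all genes, and 8 (8.42%) are on the X, which holds 15.4%. Members had a median gene length of 4152 bases (93 with a value) against 3536 bases over 3008 genes. Neighbours in the gene order, at most 2 places apart, were CG10947 and CG10949, Mpc1 and CG42613, and Ald1 and osy.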

How the data were processed

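The authors deposited 1 log2 ratio per probe and array, red over green channel, for 12588 probes on 159 two-colour cDNA arrays; the tool and background correction behind these values, and their scaling, are not given by the labels or the file. Scan comments in the labels put the sample in the red channel on 13 arrays, and the same direction is likely but not stated for the others. Deposited array medians ran from -0.78 to 0.77, so the values were not centred. The lowest correlation between any 2 arrays was -0.26. The 252 values above 16 (all 16.61, an upper limit) were treated as missing, and each array was centred on its median. Genes come from the platform's annotation (4137 probes with 1 gene, 159 with several, 8292 with none), of which 4089 matched the Release 6 gene table; a gene with several probes was read from the one with most values. The files name no genome build.

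The members, gene lists and comparisons were chosen with earlier results of these data known. Comparisons were fitted with limma 3.58.1 in R 4.3.3 on probes with a value on at least 80% of the arrays used, with slide set as a term and Benjamini-Hochberg adjustment over all probes, called at an adjusted p under 0.05; Python 3.11.15, numpy 2.4.6, pandas 2.3.3 and matplotlib 3.10.9 did the rest. The youngest flies counted as 0.5 d old. Genes named are the 8 largest rises of each kind, up to 4 called members with the largest difference each way in each comparison, members on the lists, and genes next to a threshold; others were named after their values were seen, to describe role groups. Alternatives were quantile normalization, no centring, stricter and looser demands on missing values, no slide set term, the slide as a random block, each slide set alone, the replicate number as a block, the mean of all probes of a gene, doubted arrays and each array left out; those for 36 to 48 h and 12 h of metamorphosis were chosen after seeing the data. The number of arrays limits the precision. The correlation of deviations of same-numbered arrays ranged from -0.35 to 0.76, with medians of 0.05 to 0.16 by comparison; not every pair was above 0.1, so numbers were not taken as pairs. Arrays whose title and scan comment disagree were kept under the title.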

Additional observations from a re-analysis of the deposited data

Results flagged for a closer look

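The tudor difference itself differed between the sexes for 22 members and the ageing slope for 2, by limma's interaction term at an adjusted p under 0.05. As male minus female tudor difference (log2), the values were -2.33 for CG9512, -2.05 for Daao2, -2.05 for salt, -2.02 for HisT, -1.89 for sxe2, -1.87 for Faa, -1.82 for side-VII, -1.80 for CtsK2 and -1.80 for Elal. They were -1.77 for PPO2, -1.73 for Nepl11, -1.68 for alpha-Est2, -1.68 for CG10947, -1.63 for ScsbetaA, -1.54 for JMJD7, -1.48 for ninaB and -1.39 for Ald1. Smaller differences were those of Strn-Mlck (-1.29), Desat1 (-1.19), Idgf2 (-1.03) and CG6432 (-0.99), and CG8861 alone was positive (1.32). The 22 are 25.6% of the members tested, near the 21.6% of all probes that passed the same test, so the number of them is no result about the members. salt and ScsbetaA were called in opposite directions in the sexes, higher in tudor females by 0.88 and 0.60 and lower in tudor males by 1.17 and 1.02. For the ageing slope per 10 d, male minus female was 0.48 for CG42613 (adjusted p = 0.0354) and 0.43 for fau (adjusted p = 0.0498), 2.38% of the members tested against 1.43% of all probes. fau fell by 0.48 in females. All tudor arrays were of slide set B, and the germline and testis genes moved in both sexes; their part was not tested.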

How the results depend on the processing

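The rule gave 51 genes at a threshold of 2 and 223 at 1. Slide set A alone called 25 members at 13 to 16 h of embryogenesis, 6 in larval growth, 3 in metamorphosis, 24 in adults against larvae, 0 in female ageing (22 at an unadjusted p under 0.05 in limma) and 3 in male ageing; set B alone called 19 in metamorphosis, 6 in female ageing, 9 in male ageing and 11 in tudor males. In metamorphosis 7 were called with the slide as a random block, 18 without the doubted arrays, 2 without replicate 1 at 36 to 48 h and 25 without 12 h. Quantile normalization called 38 at 2.5 to 4.5 h of embryogenesis, and no centring called 12 in each sex's ageing. Where no share of all probes is given beside such a count, it shows only how far the count of members moved. Without centring, the median difference of all probes moved from 0.34 to -0.08 at 2.5 to 4.5 h, from -0.02 to -0.17 in larval growth, from -0.07 to 0.12 in adults against larvae, from 0.07 to -0.16 between the sexes and from 0.18 to 0.02 in tudor females. Reversed signs were those of Ald1 at 2.5 to 4.5 h without centring (-0.014), CG8064 between the sexes in set A (0.030) and Elal in female ageing in set A (-0.10).

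Leaving out 1 array at a time, members called ranged from 54 to 62 at 2.5 to 4.5 h, 51 to 60 at 13 to 16 h, 30 to 41 in larvae, 7 to 24 in metamorphosis, 46 to 56 in adults against larvae, 71 to 76 between the sexes, 50 to 65 in tudor females, 13 to 25 in tudor males, 7 to 30 in female ageing and 13 to 22 in male ageing. In metamorphosis 24 were called without 12 h replicate 1 and 7 without 42 h replicate 2. Single arrays ended the call of Nepl11 in male ageing (24 arrays), CG10433 in male ageing (21), Elal in female ageing (19), Cbp53E in male ageing (16), Cht7 between the sexes (10), Faa (9) and CG16820 (8) in metamorphosis, Rim in adults against larvae (8), CG14762 in male ageing (7), Strn-Mlck in tudor males (6), CtsK2 in larvae (5), CG8064 between the sexes (5) and Cbp53E in the embryo (4), and of 9 more by 1 to 3 arrays. With the replicate number as a block in place of slide set, 59, 55, 35, 11, 50, 74, 64, 20, 34 and 23 members were called, in the order of the ranges above, each within 1.5 times the count without the block. Set A alone holds no tudor array and could not be fitted. Late metamorphosis rests on 2 set A arrays, both doubted, and 4 set B arrays.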
